A study of Homo sapiens with 12 samples.

Results

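The endoplasmic reticulum (ER) chaperones and unfolded protein response genes described here are 37 named genes, taken by symbol from the 19677 genes listed in the count tables. All 37 were found once, and all 37 passed the filter on low counts, as did 12470 genes in all. They were measured by RNA sequencing in CAOV3 cells, an established human line of high-grade serous ovarian carcinoma, labelled wild type, in 4 groups of 3 libraries. Control cells received DMSO, the ascites group received 10% ovarian cancer ascites with DMSO, the bezafibrate group received 200 uM bezafibrate, and the combination received 200 uM bezafibrate with 10% ascites. Treatment lasted 16 hours in the 3 treated groups, and the control labels give no time. Ascites is the abdominal fluid of patients with this tumour. Bezafibrate belongs to the fibrates, lipid-lowering drugs that act on PPAR nuclear receptors. The labels name DMSO only in the groups without bezafibrate, so the drug and a difference in solvent cannot be told apart. All groups are 1 cell line grown with 10% fetal bovine serum, and the labels do not say whether replicates were separate experiments or whether the ascites came from more than 1 donor. The p values therefore measure only the spread between these libraries, which may be technical.

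The ER folds secreted and membrane proteins with the help of chaperones, lectins and enzymes that form disulfide bonds. When unfolded protein accumulates, the sensors IRE1 (gene ERN1), PERK (EIF2AK3) and ATF6 signal to the nucleus, where ATF6 and spliced XBP1 bind promoters of chaperone and degradation genes. Proteins that cannot be folded are moved back to the cytosol and degraded, a process called ER-associated degradation. Cells that make membrane and secreted protein at a high rate, as many carcinomas do, depend on these genes.

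The best known promoter sequence of this response is the ER stress response element, ERSE, which is CCAAT and CCACG with 9 bases of any kind between them. Its shorter relative ERSE-II is ATTGG and CCACG with 1 base of any kind between them. Both were searched on both strands of the RefSeq promoter windows (GRCh38.p14, 250 bases before to 50 after each gene start), together with the XBP1-type core TGACGTG, the CCAAT box CCAAT, which is also part of ERSE, and the direct repeat DR1 bound by PPAR, which is AGGTCA given 2 times with 1 base of any kind between. Of the 37 genes 34 had windows, and PDIA3, DERL1 and SEC24D had none. An ERSE was found in 8 of the 34 (23.5%) against 0.0916% of all 27305 genes with windows, and an ERSE or ERSE-II in 11 (32.4%) against 0.161%. A CCAAT box was found in 29 (85.3%) against 39.7%, the TGACGTG core in 2 (5.88%) against 2.40%, and the direct repeat in none (0 of 34) against 0.0293%. Only exact matches within these windows were counted. The repeat was found in 8 of all 27305 genes, too few for its absence from the 34 to be informative. Genes of this kind are known for these elements, so these shares are not independent of how the genes were chosen. The matched elements are shown because they group the genes beyond their roles. Capitals mark the fixed letters, and each is written in the direction of the motif.
HSPA5 ERSE: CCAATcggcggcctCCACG
HSP90B1 first ERSE: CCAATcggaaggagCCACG
HSP90B1 second ERSE: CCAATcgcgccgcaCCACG
CALR ERSE: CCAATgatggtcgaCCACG
CANX ERSE: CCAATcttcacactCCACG
PDIA6 ERSE: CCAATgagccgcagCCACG
ERO1B ERSE: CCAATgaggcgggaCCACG
CRELD2 ERSE: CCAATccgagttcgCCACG
XBP1 ERSE: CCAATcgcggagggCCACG
HYOU1 ERSE-II, found at 2 places: ATTGGaCCACG
SDF2L1 ERSE-II: ATTGGtCCACG
HERPUD1 ERSE-II: ATTGGgCCACG

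The full windows are printed for the genes that were called in both drug comparisons and had a window, on the strand of the gene. The first 3 have the ERSE in capitals, spacer included. The last 2 hold no exact match to ERSE or ERSE-II and have their CCAAT boxes in capitals, read on either strand. The windows are chr9:125241294-125241593 on the minus strand for HSPA5, chr5:179698679-179698978 on the plus strand for CANX, chr22:28800520-28800819 on the minus strand for XBP1, chr14:81533804-81534103 on the minus strand for SEL1L, and chr19:4153381-4153680 on the plus strand for CREB3L3. The ERSE began 66 bases before the start in HSPA5 and 52 in XBP1. CANX has several start sites in RefSeq, and the same ERSE began 151, 9 or 189 bases before 3 of them, the first of which is the window printed. SEL1L held 5 CCAAT boxes and CREB3L3 held 1.
HSPA5: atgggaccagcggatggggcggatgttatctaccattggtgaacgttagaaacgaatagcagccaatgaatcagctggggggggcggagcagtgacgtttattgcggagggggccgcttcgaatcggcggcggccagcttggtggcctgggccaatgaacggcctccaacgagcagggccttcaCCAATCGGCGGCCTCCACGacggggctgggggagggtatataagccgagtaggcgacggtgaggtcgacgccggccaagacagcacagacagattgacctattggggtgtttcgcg
CANX: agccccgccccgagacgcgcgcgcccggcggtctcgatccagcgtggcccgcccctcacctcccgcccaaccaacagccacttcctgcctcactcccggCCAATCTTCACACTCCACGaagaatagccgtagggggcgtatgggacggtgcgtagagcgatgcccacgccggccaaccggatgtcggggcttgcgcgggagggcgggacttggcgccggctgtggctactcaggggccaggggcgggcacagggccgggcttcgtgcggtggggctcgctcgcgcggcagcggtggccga
XBP1: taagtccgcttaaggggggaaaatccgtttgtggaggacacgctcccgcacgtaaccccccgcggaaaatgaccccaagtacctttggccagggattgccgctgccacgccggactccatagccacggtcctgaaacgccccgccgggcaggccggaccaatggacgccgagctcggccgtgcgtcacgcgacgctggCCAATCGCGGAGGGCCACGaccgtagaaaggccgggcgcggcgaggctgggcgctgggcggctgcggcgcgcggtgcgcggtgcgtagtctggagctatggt
SEL1L: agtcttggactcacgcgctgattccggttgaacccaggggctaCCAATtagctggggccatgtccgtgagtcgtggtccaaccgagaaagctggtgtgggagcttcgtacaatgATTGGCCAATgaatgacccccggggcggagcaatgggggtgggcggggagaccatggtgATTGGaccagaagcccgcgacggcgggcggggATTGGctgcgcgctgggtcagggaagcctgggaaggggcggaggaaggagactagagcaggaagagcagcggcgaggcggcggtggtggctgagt
CREB3L3: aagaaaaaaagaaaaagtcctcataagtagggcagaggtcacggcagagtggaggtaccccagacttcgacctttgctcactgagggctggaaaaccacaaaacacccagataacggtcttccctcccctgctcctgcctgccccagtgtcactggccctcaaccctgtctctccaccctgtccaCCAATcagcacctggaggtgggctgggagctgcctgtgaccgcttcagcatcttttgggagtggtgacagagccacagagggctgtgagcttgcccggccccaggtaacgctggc

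Total counts ranged from 11831093 to 18762759 per library. The 37 genes held between 0.827% and 0.879% of them, so counting error is small for the abundant genes. On the second principal component of all genes, combination replicate 3 lay at 17.2 and the other 11 libraries between -7.81 and 3.25. The epithelial markers EPCAM, KRT7, KRT8, KRT18, KRT19 and CDH1 were expressed in every library. PAX8, WT1, MUC16 and FOLR1 lay at or under 1.27 CPM in all 12 (CPM is the count scaled to a common library size by TMM), and SOX17 had no count. Of 7 leukocyte markers 5 had no count in any library and the summed level of the list was 2.15 to 4.93 CPM, and of 6 plasma cell markers SDC1 alone passed the filter, at 85.4 to 101 CPM. Of the 8 epithelial and serous markers that passed the filter, 4 were higher with bezafibrate and MECOM was lower. The fibroblast list (5 markers, summed level 186 to 197 CPM without the drug and 159 to 177 with it, mostly LUM) was lower with bezafibrate in all 3 markers tested, with DCN and PDGFRB under 0.45 CPM. The part of these markers in the results below was not tested.

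The comparison with bezafibrate asked how the drug changed these genes, without ascites (bezafibrate against control) and with it (combination against ascites), 2 comparisons that share no library. Their mean is called the averaged drug change below, with 6 libraries with the drug set against 6 without it. CREB3L3 rose 3.81-fold, while the other 36 genes had averaged changes of at most 0.23 in size on the log2 scale. A gene was called when its Benjamini-Hochberg adjusted p from edgeR's quasi-likelihood test, adjusted over all 12470 genes, was under 0.05. The averaged drug change called 15 of 37 genes (40.5%), against 28.3% of all genes tested. Of these 14 were higher, where 15% of all genes were called higher, and ATF6B was lower, where 13.2% were called lower. The median log2 fold change was 0.06 over the 37 genes and -0.0047 over all genes. Each of the 37 genes had at least 78 counts in every library, while the genes tested include some with far fewer. Small changes are harder to call at few counts, and the shares were not matched for abundance. Without ascites 7 of 37 were called, 6 higher (background 10.1%) and 1 lower (7.55%), so the total of 18.9% lay near the 17.6% of all genes. With ascites 6 were called, all higher (background 10.5%) and 0 lower (7.29%), against 17.8% of all genes called in either direction. HSPA5, CANX, XBP1, CREB3L3, SEL1L and SEC24D were called in both, 16.2% of the 37 genes against 12.6% of all genes. The sign of the change was the same in both comparisons for 29 of 37 (78.4%) against 73.0% of all genes. The 37 genes were chosen with earlier results of these data known, so these shares are not those of a set drawn blind.

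The count of 15 in the averaged drug change depended on the libraries included, on the test and on the scaling. It fell to 11 (29.7%) without control replicate 1, ascites replicate 1 or 2, or any 1 of the bezafibrate libraries. It was also 11 with DESeq2. In these settings 22.8% to 26.8% of all genes were called. Without control replicate 3, 8 of the 15 calls were left, 21.6% of the 37 genes, which was below the 25.2% of all genes called in that fit. The 7 calls without ascites became 4 (10.8%) without control replicate 3, where 14% of all genes were called, and 4 without bezafibrate replicate 2, where 14.2% were. Under upper-quartile scaling 8 genes were called higher and 2 lower, 27% of the 37 genes against 29.6% of all genes, with CALR the added fall at -0.053 (SE 0.018, edgeR adjusted p 0.0207). The share of the 37 genes called in the averaged drug change was therefore above that of all genes in 17 of 19 other settings and below it in these 2, without control replicate 3 and with upper-quartile scaling. CREB3L3, HSPA5, XBP1, SEL1L, SEC24D, CANX, PDIA3 and ATF6B were called in each of the 19 other settings tried, and the other 7 genes lost their call in between 5 and 15 of them. These 7 were EIF2AK3, MANF, CRELD2, HSP90B1, PDIA4, ERO1B and SSR1, all of which lost it without control replicate 3 and at an adjusted p under 0.01. Fewer cells of a type and less RNA per cell cannot be told apart in bulk RNA, and a change common to all RNA would not be seen after scaling.

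**Figure D1:**
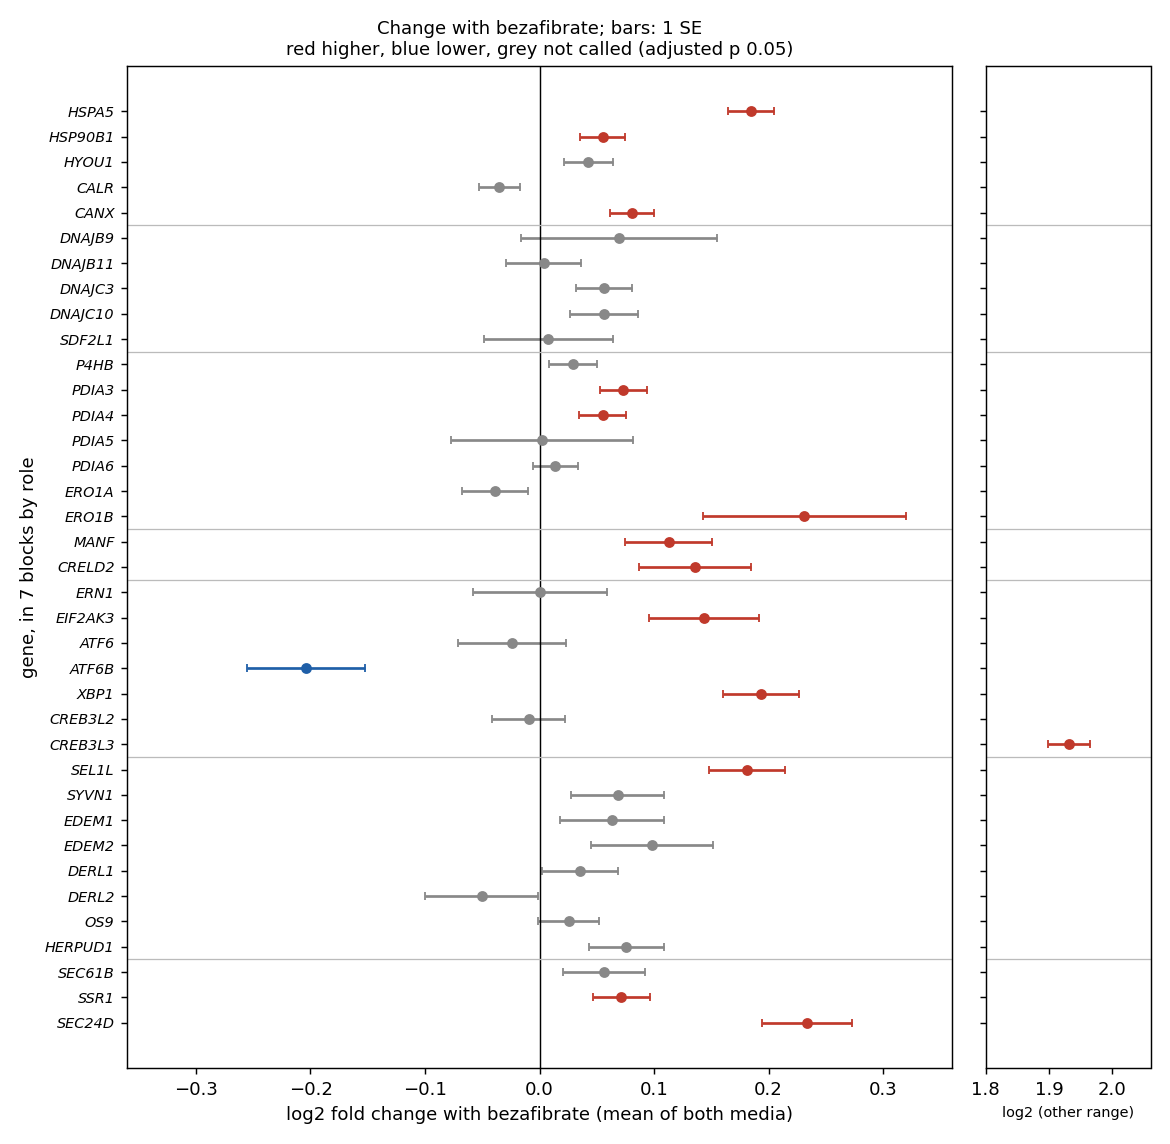
Averaged log2 fold change with bezafibrate for the 37 genes (horizontal axis; points, with bars of 1 SE), in 7 blocks by role, with CREB3L3 at 1.93 in a panel with its own range. Red points were called higher, the blue point lower, and grey points were not called. The 14 red points include 1 or more genes in every block except the HSPA5 co-chaperones. The blocks hold 2 to 8 genes, and a difference between blocks was not tested.

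Among the sensors and transcription factors, CREB3L3 (ENSG00000060566.14, chr19:4153631-4173054 in RefSeq on GRCh38) had by far the largest change. It encodes CREBH, a membrane-bound factor of the ER that is cleaved in the Golgi and is best known from the liver, where it works with PPAR alpha in the fasting response. CREB3L3 stood at 42.7, 39.2 and 40.5 CPM in the control libraries and at 37.9, 37.3 and 37.98 CPM with ascites. It stood at 153.4, 151.5 and 161 CPM with bezafibrate and at 147, 140.1 and 146 CPM with the combination. All 6 libraries with the drug were above all 6 without it, with a gap far wider than the spread within any group. The log2 fold change of CREB3L3 was 1.93 without ascites (SE 0.046, edgeR adjusted p 8.24e-29) and 1.94 with it (SE 0.047, edgeR adjusted p 1.95e-28). Its averaged change ranked 36 in size among the 12470 genes tested.

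XBP1 encodes the factor made active by IRE1 through splicing of its mRNA, and gene counts do not separate the spliced form. XBP1 stood at 81.5, 87.6 and 83.4 CPM in control and 78.9, 90.6 and 82.2 CPM with ascites, and at 90.2, 95.2 and 93.6 CPM with bezafibrate and 100.8, 101 and 95.1 CPM with the combination. The libraries with the drug were higher, but ascites replicate 2 overlapped the lowest bezafibrate library. Its averaged log2 fold change was 0.19 (SE 0.033, edgeR adjusted p 1.57e-05). ATF6B, a relative of ATF6, was the gene that fell. It stood at 34.9, 35.7 and 38.1 CPM in control, 35.03, 35.4 and 37.1 CPM with ascites, 30.3, 31.6 and 31.3 CPM with bezafibrate, and 36.2, 27.3 and 29.6 CPM with the combination. Combination replicate 1 lay within the range of the libraries without the drug and the other 5 drug libraries below it. ATF6B was called without ascites at -0.22 (SE 0.071, edgeR adjusted p 0.0273) and missed the threshold with ascites at -0.19 (SE 0.073, edgeR adjusted p 0.0718), while its averaged change was -0.20 (edgeR adjusted p 0.00215).

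EIF2AK3, which encodes PERK, went from 24.97 ± 0.969 CPM in control to 28.3 ± 1.46 CPM with bezafibrate, and from 26.2 ± 0.463 CPM with ascites to 28.4 ± 1.47 CPM with the combination (SD, n = 3). The 6 drug libraries, at 26.7 to 29.8 CPM, lay just above the 6 others, at 23.9 to 26.6 CPM. Its averaged log2 fold change of 0.14 was called (SE 0.048, edgeR adjusted p 0.021) and neither single comparison was. The other sensors were not called, with averaged log2 fold changes of 0.00045 for ERN1 (SE 0.059) and -0.024 for ATF6 (SE 0.047). CREB3L2, a membrane-bound relative of CREB3L3, was at -0.0096 (SE 0.032), so the change of CREB3L3 had no counterpart of like size in this block.

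**Figure D2:**
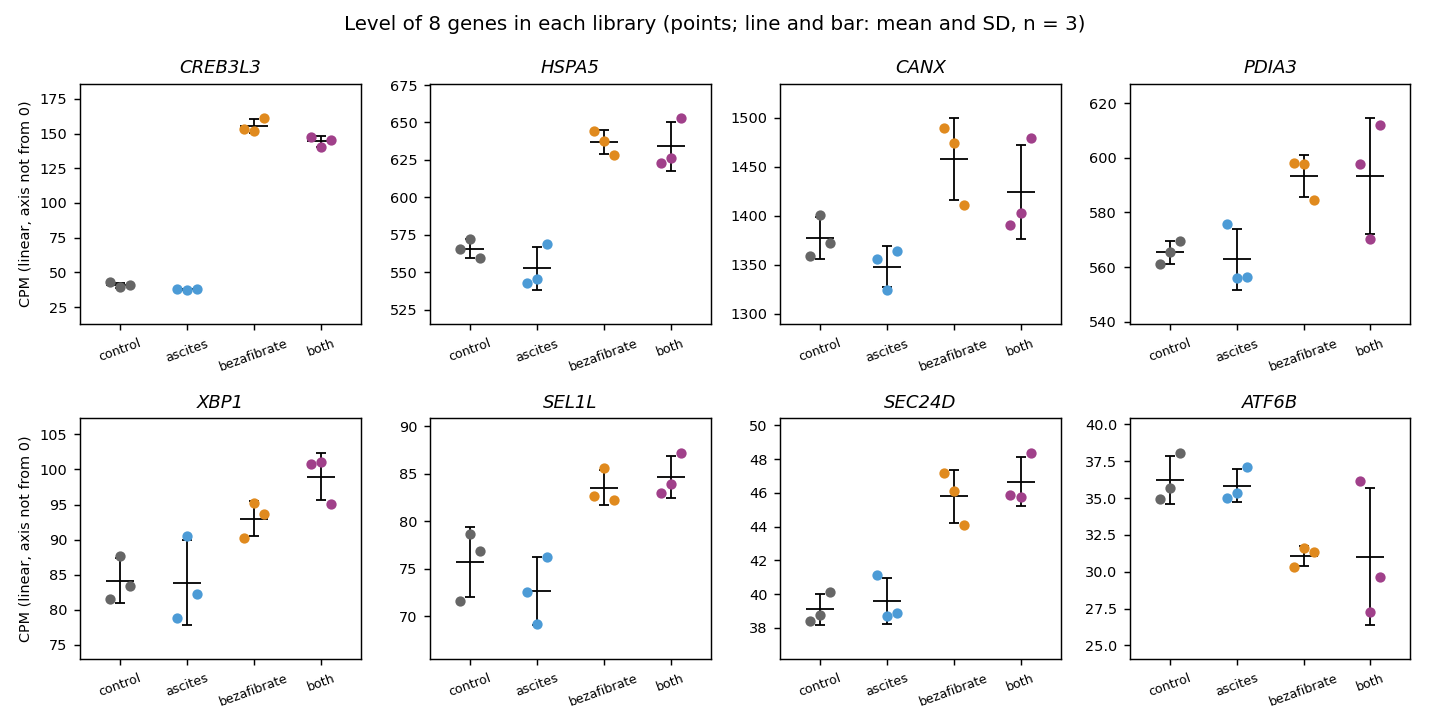
CPM in each of the 12 libraries for the 8 genes called in every setting (points; the line is the mean and the bar the SD, n = 3), on linear axes that do not start at 0. The label both stands for the combination. CREB3L3 lies at 37.3 to 42.7 CPM without the drug and 140.1 to 161 CPM with it, and the other 7 genes shift by much less.

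Of the 5 chaperones and lectins, HSPA5, HSP90B1 and CANX were called higher (60%, against 28.3% of all genes called). HYOU1 and CALR were not called. HSPA5 (ENSG00000044574.9) encodes BiP, the main ER chaperone of the HSP70 family, which also holds the sensors inactive. HSPA5 stood at 565.8, 571.9 and 559 CPM in control, 543, 545 and 569 CPM with ascites, 644, 637 and 628 CPM with bezafibrate, and 623, 627 and 653 CPM with the combination. The lowest library with the drug was above the highest without it. The rise was small, 1.14-fold in the averaged change or 0.18 on the log2 scale (SE 0.020, edgeR adjusted p 1.04e-09). HSPA5 carries the ERSE shown above 66 bases before its start.

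CANX encodes calnexin, a membrane lectin that holds glycoproteins during folding. It stood at 1359, 1401 and 1373 CPM in control, 1356, 1324 and 1364 CPM with ascites, 1489, 1474 and 1411 CPM with bezafibrate, and 1391, 1403 and 1479 CPM with the combination. Combination replicate 1 was below the highest control library, so the 6 and 6 libraries overlapped. The averaged log2 fold change of CANX was 0.081 (SE 0.019, edgeR adjusted p 0.00116). CALR, the soluble relative calreticulin, which also has an ERSE, was at -0.035 (SE 0.018, edgeR adjusted p 0.154), the opposite sign to CANX. HSP90B1, the ER chaperone GRP94, was called at 0.055 (SE 0.020, edgeR adjusted p 0.0313), and HYOU1, a large HSP70-type chaperone, was at 0.043 (SE 0.022, edgeR adjusted p 0.146).

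None of the 5 co-chaperones of HSPA5 was called with edgeR (0 of 5, where 28.3% of all genes were). DNAJC3, which also inhibits PERK, had an unadjusted p of 0.0262 and was 1 of 2 uncalled genes under 0.05, the other being HERPUD1. The averaged log2 fold changes of the block ran from 0.0037 for DNAJB11 to 0.069 for DNAJB9. DNAJB9, a J-domain protein that restrains IRE1 and is a strong target of XBP1 in many cells, had means of 8.39 CPM in control and 9.37 CPM with bezafibrate, and of 8.501 CPM with ascites and 8.45 CPM with the combination. Its SE of 0.085 was among the widest, so a change of the size seen for XBP1 was hard to detect there. SDF2L1, an HSPA5 partner with an ERSE-II, stood at 23.3 ± 0.317 CPM in control and 24.1 ± 2.01 CPM with bezafibrate (SD, n = 3), and DNAJC10, a reductase, was at 0.057 on the log2 scale (SE 0.030).

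Of the 7 genes of disulfide formation, PDIA3, PDIA4 and ERO1B were called higher (42.9%, against 28.3% of all genes called). PDIA3, the glycoprotein-specific disulfide isomerase that works with calnexin and calreticulin, stood at 561, 565.5 and 569.6 CPM in control, 575.7, 556 and 556.5 CPM with ascites, 598, 597.7 and 584.5 CPM with bezafibrate, and 597.6, 570.3 and 612 CPM with the combination. Combination replicate 2 lay among the libraries without the drug and the other 5 above them. The averaged log2 fold change of PDIA3 was 0.073 (SE 0.020, edgeR adjusted p 0.00493), and neither single comparison was called. PDIA3 shares exon bases on the opposite strand with ELL3, AC018512.1 and CATSPER2P1 in GENCODE 29. ELL3 had 654 counts over the 12 libraries and PDIA3 had 100273, and no counts are listed for the other two. PDIA4 was called at 0.055 (SE 0.020) and ERO1B, an oxidase that recharges the isomerases, at 0.23 (SE 0.088). ERO1B had the lowest mean of the 37 genes in control, 7.002 CPM, and the widest SE, and its call at an edgeR adjusted p of 0.0465 was lost in 15 of 19 settings. ERO1A, the other oxidase, was at -0.039 (SE 0.028), P4HB at 0.029, PDIA6 at 0.014 and PDIA5 at 0.0022, and these 4 were not called.

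MANF and CRELD2 encode small ER proteins that are secreted when ER calcium falls. MANF was called in the averaged drug change, at 0.11 on the log2 scale (SE 0.038, edgeR adjusted p 0.022). It went from 58.3 ± 4.44 CPM in control to 62.4 ± 0.831 CPM with bezafibrate. With ascites present it went from 56.7 ± 1.22 to 61.96 ± 3.66 CPM. CRELD2 was called in the averaged drug change at 0.14 (SE 0.049, edgeR adjusted p 0.0325). It went from 32.0 ± 1.13 to 35.9 ± 2.93 CPM without ascites and from 33.4 ± 1.35 to 35.8 ± 3.33 CPM with it (SD, n = 3 for both genes). Neither gene was called in either single comparison. In both genes libraries with and without the drug overlapped, and both calls were lost without control replicate 3 and with DESeq2.

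**Figure D3:**
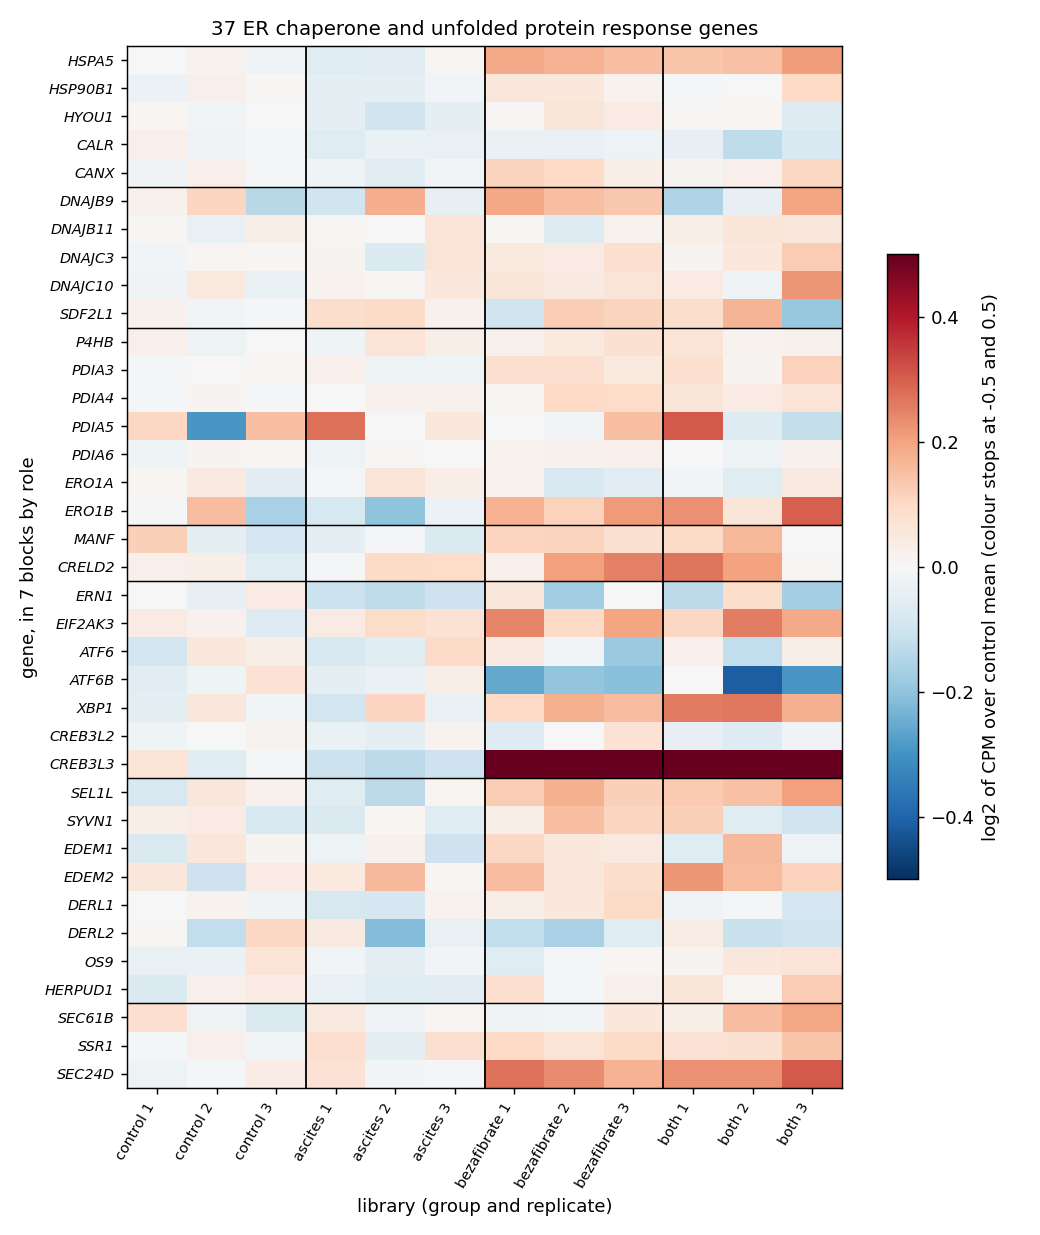
Log2 of CPM over the control mean for each gene (rows, in 7 blocks by role) and library (columns, grouped by treatment), with colour limited to -0.5 and 0.5. CREB3L3 exceeds the upper limit in all 6 drug libraries, HSPA5, SEL1L and SEC24D are red in the same 6, and ATF6B is blue in 5 of them. The label both stands for the combination.

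Of the 8 genes of ER-associated degradation, SEL1L was called (12.5%, against 28.3% of all genes). SEL1L is the scaffold of the HRD1 ubiquitin ligase complex, whose ligase is encoded by SYVN1. SEL1L stood at 71.6, 78.7 and 76.9 CPM in control, 72.5, 69.2 and 76.3 CPM with ascites, 82.7, 85.7 and 82.2 CPM with bezafibrate, and 83.0, 83.9 and 87.2 CPM with the combination. The drug libraries did not overlap the others. The averaged log2 fold change of SEL1L was 0.18 (SE 0.033, edgeR adjusted p 4.08e-05). SYVN1, its partner, was at 0.068 (SE 0.040, edgeR adjusted p 0.225) and was not called. HERPUD1, a further part of the complex and an ERSE-II gene, was at 0.076 (SE 0.033, edgeR adjusted p 0.0798). EDEM1 and EDEM2, which trim mannose from misfolded glycoproteins, were at 0.063 and 0.098, OS9, a lectin that reads the trimmed sugar, at 0.026, and the channel proteins DERL1 and DERL2 at 0.035 and -0.051.

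Of the 3 genes of protein entry and export, SEC24D and SSR1 were called (66.7%, against 28.3% of all genes) and SEC61B was not. SEC24D is a cargo-binding subunit of the COPII coat that carries protein from the ER to the Golgi. SEC24D stood at 38.4, 38.8 and 40.1 CPM in control, 41.2, 38.7 and 38.9 CPM with ascites, 47.2, 46.1 and 44.1 CPM with bezafibrate, and 45.9, 45.8 and 48.4 CPM with the combination. Again no library with the drug fell in the range of those without it. The log2 fold change of SEC24D was 0.23 without ascites (SE 0.055, edgeR adjusted p 0.0018) and 0.24 with it (SE 0.056, edgeR adjusted p 0.00183). SSR1, of the translocon-associated complex, was called in the averaged change at 0.071 (SE 0.025, edgeR adjusted p 0.0267), and SEC61B, a subunit of the translocation channel, was at 0.056 (SE 0.036).

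The 22 genes that were not called had averaged log2 fold changes from -0.051 to 0.098, of which 17 were above 0 and 5 below. The SE over the 37 genes had a median of 0.033 and ran from 0.018 for CALR to 0.088 for ERO1B. Changes of this size are therefore not resolved in the genes with few counts. Small changes also went uncalled in abundant genes, such as HYOU1 at 0.043 and P4HB at 0.029. A gene that was not called may still have changed. By promoter element, 6 of the 11 genes with an exact ERSE or ERSE-II match were called higher, with a median log2 fold change of 0.076. Of the 23 with a window and no exact match, 6 were called higher, with a median of 0.056. Among all genes 15% were called higher. The 6 with an element were HSPA5, HSP90B1, CANX, ERO1B, CRELD2 and XBP1, of which HSP90B1, CRELD2 and ERO1B lost the call in 9, 9 and 15 of 19 settings. Of the 6 without a match, PDIA4, MANF, SSR1 and EIF2AK3 lost it in 10, 7, 7 and 5 of 19, while SEL1L and CREB3L3 kept it. ATF6B, called lower, also had no match. The largest change, that of CREB3L3, was in a gene with no exact match to ERSE or ERSE-II. Together the 37 genes took 0.839% ± 0.0047 of all counts in control and 0.871% ± 0.0018 with bezafibrate, and 0.831% ± 0.0042 with ascites and 0.863% ± 0.016 with the combination (SD, n = 3). Without CREB3L3 these shares were 0.835%, 0.855%, 0.827% and 0.849% in the same order, and combination replicate 2, at 0.8345%, lay among the libraries without the drug.

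The comparison with ascites asked whether the fluid changed these genes. No gene of the 37 was called with edgeR, without the drug (0 of 37, background 0.0882%), with it (0 of 37, background 0.128%) or averaged (0 of 37, background 0.281%), nor with DESeq2 or limma voom. At an unadjusted p under 0.05 there were 2, 3 and 4 genes in these comparisons (5.41%, 8.11% and 10.8% of the 37), where 6.01%, 4.79% and 6.97% of all genes were. Without combination replicate 3 the shares of all genes called rose to 0.191%, 0.223% and 0.938%, and still no gene of the 37 was called (0 of 37). The median log2 fold change was -0.0096 without the drug and -0.000037 with it, and the averaged changes ran from -0.11 to 0.075. The lowest edgeR adjusted p in the averaged change was that of CREB3L3 (0.291), which was at -0.11 on the log2 scale (SE 0.034). CREB3L3 was lower with ascites in both settings by nearly the same amount, -0.11 without the drug (SE 0.055, edgeR adjusted p 0.827) and -0.10 with it (SE 0.039, edgeR adjusted p 0.796). Neither change was called. In each the 3 ascites libraries lay below the 3 others, which was not particular to CREB3L3. Ranges without overlap were found for 4 and 5 of the 37 genes in these comparisons, CREB3L3 included. They were also found for 18 and 16 of the 139 genes in the 5 lists given below. The share over all genes was not counted, so these counts have no background and are not read as a result about the 37 genes. HSPA5 was at -0.034 without the drug and -0.0065 with it, and HYOU1 at -0.064 and -0.052. The test of whether the drug change differed between media with and without ascites called no gene of the 37 with edgeR (0 of 37, background 0%), DESeq2 or limma voom, none had an unadjusted p under 0.05, and the difference for CREB3L3 was 0.011 with an SE of 0.067.

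**Figure D4:**
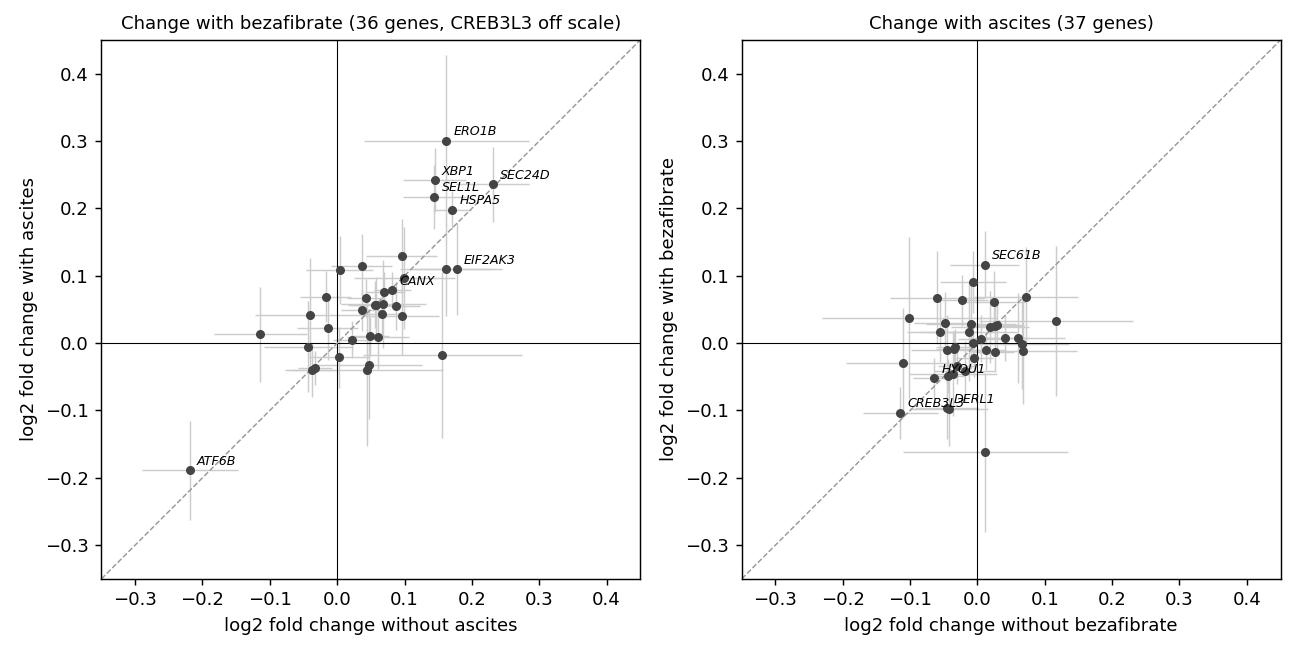
Log2 fold change with bezafibrate without and with ascites for 36 genes (left, CREB3L3 off scale at 1.93 and 1.94) and with ascites without and with bezafibrate for 37 genes (right), with bars of 1 SE and a dashed line of equality. SEC24D, HSPA5, XBP1 and SEL1L lie at the upper right of the drug panel and ATF6B at the lower left, while the ascites panel has all points between -0.16 and 0.12.

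Other genes of the same pathway, in 5 lists written from general knowledge with earlier results of these data known, are given for setting. Of 139 genes tested in these lists, 36 were called higher and 9 lower in the averaged drug change, 32.4% against 28.3% of all genes. The list of ER to Golgi transport had 9 of 24 called higher and 1 lower (41.7% called, median log2 fold change 0.056). Its largest changes were those of SEC23A, the COPII partner of SEC24 proteins, at 0.27 (SE 0.022), ARFGAP3, a Golgi coat regulator, at 0.23, and ERGIC1 at 0.18. SEC23A went from 458 ± 4.83 to 558 ± 20.8 CPM without ascites and from 465 ± 6.39 to 558 ± 24.5 CPM with it (SD, n = 3), so its rise stood beside that of SEC24D. The list of signalling genes had 11 of 28 called higher and 4 lower (53.6% called, median 0.060). CEBPB, a transcription factor of stress and differentiation, was at 0.53, WFS1, an ER membrane protein that limits ATF6 activity, at 0.52, and CHAC1, a glutathione-degrading target of the PERK arm, at 0.28.

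In the 3 remaining lists the share called was below the 28.3% of all genes, of which 15% were called higher. The list of degradation genes had 5 of 25 called higher and none lower (20% called, median 0.028). Its largest changes were those of EDEM3, a mannosidase related to EDEM1, at 0.33 (SE 0.030), ERLEC1, a lectin, at 0.18 and VCP, the ATPase that extracts proteins from the membrane, at 0.12. The list of other folding genes had 5 of 31 called higher and 3 lower (25.8% called, median -0.013). TXNDC5, a disulfide isomerase, was at 0.21, FKBP11, a prolyl isomerase, at 0.18 and QSOX1, an oxidase of the secretory pathway, at -0.17. The list of protein entry had 6 of 31 called higher and 1 lower (22.6% called, median 0.026). Its largest changes were SEC61G at 0.16, SEC62 at 0.12 and SRP54 at 0.098.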

How the data were processed

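For each of the 12 libraries the deposited table, without a header, holds raw counts by gene, all whole numbers. The submitters' processing notes name GRCh38, Trimmomatic 0.39, STAR 2.7.9a, RSEM 1.3.3 and DESeq2 1.28.1 with no role. The counting step, rounding, annotation and strand are not given in the sources used here. Reads of overlapping genes therefore cannot be assigned. By GENCODE 29, 17 of the 37 genes share exon bases with another gene, among them the called genes PDIA3, EIF2AK3, SSR1, ATF6B and HSP90B1.

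Genes were kept by filterByExpr (minimum count 10, minimum total 15), scaled by TMM and fitted over all 12 libraries with 1 mean per group in edgeR 4.0.16 (R 4.3.3), with robust quasi-likelihood F tests. The SE was taken as the size of the log2 change over the root of its F value. Replicates differed by a chi-square of 1.44 to 4.45 per degree of freedom, so none was a duplicate. The fit was tested on simulated data, with changes given to genes with a mean above 50 counts. Of 50 genes changed 1.1-fold, the averaged drug comparison called 24 in the right direction. The single drug comparisons called 10 of 50 without ascites and 7 of 50 with it. At 1.2-fold the averaged comparison called 43 of 50. Alternatives used DESeq2 1.42.0 and limma 3.58.1.

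All genes called in a drug or ascites comparison were named, and in each other list the 3 largest called changes. The genes and lists were chosen with earlier results of these data known. Promoters were matched to RefSeq by symbol. Protein sequences were not used here.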

Additional observations from a re-analysis of the deposited data

How the results depend on the processing

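The counts of called genes among the 37 were recomputed under other settings. For bezafibrate against control the 7 calls became 4 with DESeq2 (10.8%, against 14% of all genes) and 3 at an adjusted p under 0.01 (8.11%, against 12.1%). With 1 library left out they lay between 4 (10.8%) and 10 (27%). The 4 were without control replicate 3 (against 14% of all genes) and without bezafibrate replicate 2 (against 14.2%). The 10 were without combination replicate 3 (against 20.3%). For the averaged drug change the 15 calls became 8 at an adjusted p under 0.01 (21.6%, against 19.7% of all genes). With 1 library left out they lay between 8 (21.6%, against 25.2%, without control replicate 3) and 14 (37.8%, against 25.6% to 28.8%). For the combination against ascites the 6 calls ranged, with 1 library left out, from 5 to 9. The 5 were 13.5% of the 37 genes, against 13.9% to 16.7% of all genes. The 9 were 24.3%, against 17.5%, without combination replicate 1. The share of the 37 genes called was below that of all genes in 7 of 20, 2 of 19 and 16 of 20 other settings for these 3 comparisons. The cause was not tested, except that the stricter threshold gives fewer calls by construction. With a replicate block the counts were 7, 14 and 5 for these 3 comparisons (18.9%, 37.8% and 13.5%). The shares of all genes were then 17.2%, 27.7% and 17.3%. The labels give the numbers no shared origin, and same-numbered libraries had correlations of deviations from their group means from -0.139 to 0.055 over 18 pairs, so the numbers were not taken as pairs. No count for ascites or the interaction moved from 0 under any setting run. Of 545 recomputed changes of called genes, 449 kept their call, 96 lost it and none changed sign (0 of 545). The stricter threshold used the same fit, so no sign could change there. The genes were also picked as called in these same libraries, so a kept sign says little. Upper-quartile scaling moved the median change of all genes with the drug from -0.0047 to -0.023 and the share of called genes that were higher from 53.2% to 43.3%. Depth limits the genes at low CPM, such as ERO1B, DNAJB9 and PDIA5.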
